A study of Mus musculus with 16 samples.

Results

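The genes described are Cd74, H2-Eb1, H2-Aa and H2-Ab1, which encode the invariant chain and the classical alpha and beta chains of MHC class II. They were taken by their gene names from the 5205 genes that were listed in either of 2 deposited tables of mouse liver RNA. All 4 were listed in both tables, so 0 members were absent, and all 4 had enough counts to be tested in every comparison.

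MHC class II molecules carry peptides from proteins that a cell has taken up and show them to CD4+ T cells. An alpha and a beta chain pair in the endoplasmic reticulum with the invariant chain, which fills the peptide groove and guides the complex to endosomes, where proteases degrade it and H2-DM exchanges its last fragment for a peptide. In the liver the molecules are best known from Kupffer cells, other macrophages, dendritic cells and B cells, and the transactivator CIITA and interferon gamma raise the transcription of these genes together.

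Liver RNA came from 16 male mice of the C57BL6 strain, 4 in each of 4 groups, and the study asked what thrombospondin 1 (TSP1, encoded by Thbs1) made by platelets does in diet-induced steatohepatitis. TSP1F/F mice (labelled WT) carry a floxed Thbs1 and are the littermate controls. TSP1ΔPf4 mice (labelled KO) carry the same floxed gene and Pf4-Cre, a transgene that deletes it in megakaryocytes and the platelets they form. Cells in which Pf4-Cre is not active keep the gene, and Gp1ba-Cre, which the paper regards as the stricter of the 2 drivers, was not used. Each genotype was fed a low-fat diet (LF) or the AMLN diet, which is rich in fat, fructose and cholesterol, for 32 weeks. The paper's list of animals gives the mice as 8 weeks old.

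The tables give counts per gene, counts scaled by the authors and FPKM (counts divided by gene length and by the library total, so that genes and libraries can be set side by side) for each mouse. The TSP1F/F table lists 2558 genes and the other table lists 3399, with 752 in both. Each table holds genes that the authors had selected for an unadjusted p under 0.05 between the diets, the largest being 0.0499, so small diet p-values of the members are no independent sign of an effect of diet. Library totals computed from counts, gene lengths and FPKM had a median of 18908942 (lowest 18135112, highest 26649603) in TSP1F/F mice on LF and of 27661651 (lowest 18362810, highest 39753019) on AMLN. In TSP1ΔPf4 mice the median was 18838183 (lowest 17127965, highest 20700888) on LF and 27148200 (lowest 23221536, highest 31363462) on AMLN. These totals are rounded, since the computed values are not whole numbers, and a scaling by the authors may be part of them. The counts of the members lay between 131, for H2-Aa in the LF-fed TSP1F/F replicate 1, and 13340, for Cd74 in the AMLN-fed TSP1F/F replicate 3. Of the 12 genes listed as hepatocyte markers, 2 (Ttr and Serpina1a) were in both tables and summed to between 2019 and 6324 FPKM in every mouse, while Alb was in neither table and was not analysed here.

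H2-Ab1 (ENSMUSG00000073421), H2-Aa (ENSMUSG00000036594) and H2-Eb1 (ENSMUSG00000060586) are neighbours on chromosome 17 of mm10. Their genes run from 34263209 to 34269418 on the forward strand, from 34282744 to 34287827 on the reverse strand and from 34305877 to 34316199 on the forward strand. Cd74 (ENSMUSG00000024610) lies on another chromosome.

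RefSeq promoters (GRCm38.p6) are given for 2 of the 4 members, H2-Aa and H2-Eb1. H2-Ab1 had no promoter entry, and the promoter of Cd74 is not reported here. The stretch from 170 to 21 bases before the start is printed 5′ to 3′ for H2-Aa (chr17:34287844-34287993, reverse strand) and H2-Eb1 (chr17:34305697-34305846, forward strand). Capitals mark GCAAC and CTGATTGG, which were chosen, like the spacing, after these sequences had been seen.
H2-Aa: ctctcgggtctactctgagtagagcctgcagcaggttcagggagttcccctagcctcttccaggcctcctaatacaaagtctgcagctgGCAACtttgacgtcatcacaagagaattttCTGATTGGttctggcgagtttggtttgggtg
H2-Eb1: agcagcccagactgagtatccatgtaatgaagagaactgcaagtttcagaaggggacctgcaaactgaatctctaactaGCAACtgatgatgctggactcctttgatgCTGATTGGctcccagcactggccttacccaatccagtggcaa
In H2-Aa the first motif begins 81 bases and the second 51 bases before the start, with their first bases 30 apart. In H2-Eb1 they begin 91 and 62 bases before the start, with their first bases 29 apart. Searched on both strands in the 250 bases before the start of 32851 promoters, GCAAC was held by 29.9% and CTGATTGG by 3.83%. CCAAT, whose reverse complement ATTGG lies inside CTGATTGG, was held by 33.8%. Both motifs on the same strand, with first bases 20 to 45 apart, were held by 34 promoters (0.103%). Among the other class II genes with a promoter in the table, H2-Eb2 and H2-Oa held the pair and H2-DMa, H2-DMb1, H2-DMb2 and H2-Ob did not. A match is a description and neither a site nor a cause.

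Cd74, the invariant chain, had the highest mean FPKM of the members in every group. On LF it had 16.8, 27.8, 11.8 and 22.1 FPKM in TSP1F/F mice and 42, 36.6, 25.1 and 37.4 in TSP1ΔPf4 mice, in the order of replicates 1 to 4. On AMLN it had 123, 73.7, 238 and 144 FPKM in TSP1F/F mice and 83.6, 156, 114 and 122 in TSP1ΔPf4 mice. The AMLN-fed mice were all above the LF-fed mice of their genotype, replicate 3 of the AMLN-fed TSP1F/F group was the highest, and the genotypes overlapped on each diet. The means were 19.6 ± 6.88 (SD, n = 4) and 145 ± 68.8 FPKM on LF and AMLN in TSP1F/F mice, and 35.3 ± 7.18 and 119 ± 29.6 in TSP1ΔPf4 mice.

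H2-Eb1 encodes the beta chain of the E molecule. H2-Ea, the gene of its alpha partner, was in neither table and was not analysed here. The values of H2-Eb1 therefore do not show whether an E molecule was formed. On LF, H2-Eb1 had 9.83, 17.7, 10.6 and 6.34 FPKM in TSP1F/F mice and 16.2, 12.3, 14.3 and 19.6 in TSP1ΔPf4 mice. On AMLN its levels were 57.9, 53.3, 121 and 121 FPKM in TSP1F/F mice and 40.1, 64.9, 49.1 and 79.8 in TSP1ΔPf4 mice. The diets did not overlap in either genotype, while the genotypes overlapped on both diets, and the AMLN-fed TSP1F/F mice fell into 2 low and 2 high values. Mean H2-Eb1 was 11.1 ± 4.76 and 88.3 ± 37.8 FPKM (SD, n = 4) in TSP1F/F mice and 15.6 ± 3.11 and 58.5 ± 17.5 in TSP1ΔPf4 mice.

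H2-Aa encodes the alpha chain of the A molecule. Its LF values were 3.65, 16, 13.7 and 7.41 FPKM in TSP1F/F mice and 10.9, 8.71, 13.8 and 13.4 in TSP1ΔPf4 mice. Its AMLN values were 44.5, 47.3, 87 and 113 FPKM in TSP1F/F mice and 24.5, 43, 32 and 53.9 in TSP1ΔPf4 mice. Again the diets did not overlap, and on AMLN only replicates 3 and 4 of the TSP1F/F group lay above every TSP1ΔPf4 mouse. Mean H2-Aa was 10.2 ± 5.68 and 73.1 ± 33.2 FPKM (SD, n = 4) in TSP1F/F mice and 11.7 ± 2.35 and 38.4 ± 12.9 in TSP1ΔPf4 mice.

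H2-Ab1 encodes the beta chain that pairs with the H2-Aa product. It had 6.95, 26.9, 22.3 and 9.31 FPKM in LF-fed TSP1F/F mice and 13.1, 9.38, 19 and 22.3 in LF-fed TSP1ΔPf4 mice. After AMLN feeding it had 54.2, 62.7, 108 and 176 FPKM in TSP1F/F mice and 33.4, 48.5, 34.9 and 64.7 in TSP1ΔPf4 mice. The lowest AMLN-fed mouse of each genotype was above the highest LF-fed mouse, and on AMLN replicate 4 was the only TSP1ΔPf4 mouse within the TSP1F/F range. Mean H2-Ab1 was 16.4 ± 9.74 and 100 ± 55.9 FPKM (SD, n = 4) in TSP1F/F mice and 16 ± 5.79 and 45.3 ± 14.6 in TSP1ΔPf4 mice.

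**Figure D1:**
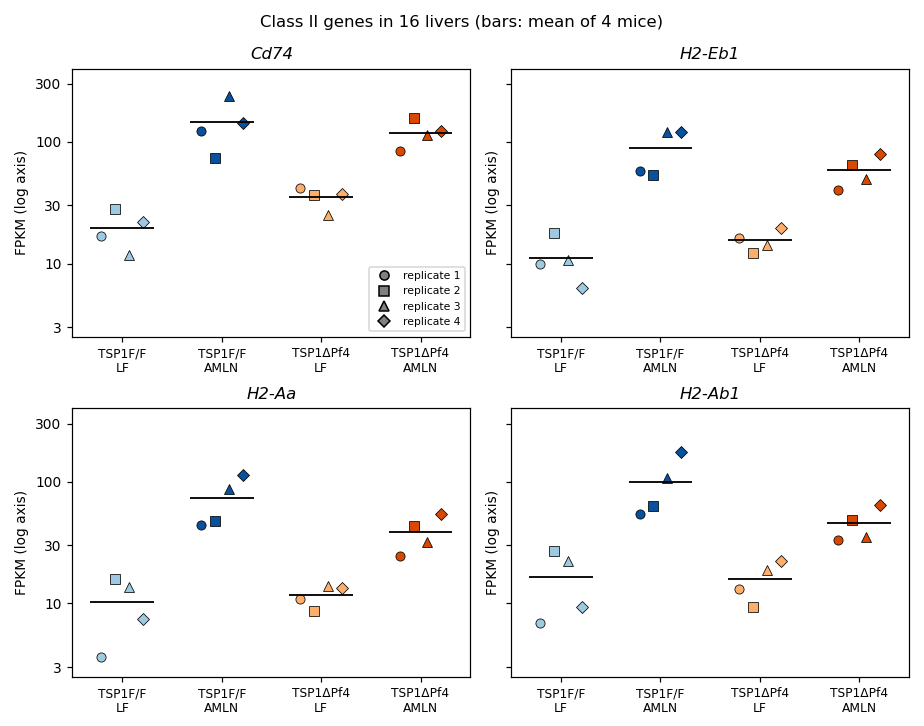
FPKM (vertical axis, log scale) of the 4 genes in each of the 16 livers, by genotype and diet (horizontal axis). Symbols are single mice by replicate number and bars are means of 4 mice. For each gene the AMLN-fed mice lie above all LF-fed mice of the same genotype, and the genotypes overlap on each diet.

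Summed over the 4 genes, the level was 37.2, 88.4, 58.5 and 45.2 FPKM in LF-fed and 280, 237, 554 and 555 FPKM in AMLN-fed TSP1F/F mice. The TSP1ΔPf4 mice had sums of 82.3, 67, 72.2 and 92.6 FPKM on LF and 182, 312, 230 and 321 FPKM on AMLN. The diets did not overlap and the genotypes did, with mean sums on AMLN of 406 ± 172 FPKM in TSP1F/F and 261 ± 66.9 in TSP1ΔPf4 mice (SD, n = 4). The share of Cd74 in the sum averaged 36.5% and 36% on LF and AMLN in TSP1F/F mice and 45.2% and 45.9% in TSP1ΔPf4 mice.

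The order of mean FPKM in both TSP1F/F groups was Cd74, H2-Ab1, H2-Eb1 and H2-Aa, and all neighbours in it overlapped. LF-fed TSP1ΔPf4 mice had the same order, but there Cd74 stood above H2-Ab1 without overlap. In AMLN-fed TSP1ΔPf4 mice H2-Ab1 came after H2-Eb1, and Cd74 was again apart from its neighbour. The ranges of H2-Eb1, H2-Ab1 and H2-Aa in that group overlapped, although each of the 4 mice had them in this order.

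Counts, scaled by library total, were tested by edgeR (quasi-likelihood) and p-values adjusted by Benjamini-Hochberg. Calls needed an adjusted p below 0.05 together with a log2 fold change beyond 0.25 in either direction. In TSP1F/F mice 3 of the 4 members were called raised on AMLN, where 50 of 2096 tested genes (2.39%) were called raised and 52 (2.48%) were called in either direction. H2-Eb1 had a log2 fold change of 2.99 (SE 0.41, adjusted p = 0.0182). Cd74 had 2.88 (SE 0.40, adjusted p = 0.0195) and H2-Aa had 2.84 (SE 0.49, adjusted p = 0.0434). H2-Ab1, at 2.62 (SE 0.51, adjusted p = 0.0637), was not called, but edgeR called it after TMM scaling (adjusted p = 0.047) and without the low count filter (adjusted p = 0.0462). For all 4 members the 4 AMLN-fed mice lay above the 4 LF-fed mice, as they did for 768 of the 2096 tested genes (36.6%). The two-sided exact permutation test of log2(CPM + 1), where CPM are counts divided by the library total and brought to a common scale, gave p = 0.0286 for each member (n = 4 against 4), the smallest p it can give. The median tested gene was itself at 1.15 (0.97 after TMM scaling and 1.02 with DESeq2), so the members were between 1.47 and 1.84 above it.

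Single mice changed the diet calls in TSP1F/F mice. Cd74 and H2-Eb1 kept their call in 5 of the 8 fits that each left out 1 mouse and lost it without LF replicate 1 (adjusted p = 0.0551 and 0.0517), LF replicate 4 (0.0786 and 0.0694) or AMLN replicate 3 (0.0537 and 0.066). H2-Aa was called in 0 of the 8 edgeR fits (adjusted p from 0.0513 to 0.147), although its log2 fold change stayed between 2.55 and 3.14. DESeq2 with its own size factors called all 4 members, with log2 fold changes from 2.25 to 2.60, and called 339 genes raised and 508 lowered, while DESeq2 at the authors' size factors called 518 raised and 126 lowered and edgeR 50 and 2.

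In TSP1ΔPf4 mice 3 of the 4 members were called raised on AMLN, where 45 of 3089 tested genes (1.46%) were called raised and 92 (2.98%) were called in either direction. H2-Eb1 had a log2 fold change of 1.91 (SE 0.26, adjusted p = 0.0227), which ranked 6 by p among the tested genes. Cd74 followed with 1.75 (SE 0.25, adjusted p = 0.0316) and H2-Aa with 1.71 (SE 0.27, adjusted p = 0.0316). H2-Ab1 was not called, at 1.51 (SE 0.31, adjusted p = 0.053), but it was after TMM (adjusted p = 0.0156), with DESeq2 (adjusted p = 5.66e-08) and with DESeq2 at the authors' size factors (adjusted p = 0.000427), so that these 3 fits called all 4 members. Every member had its 4 AMLN-fed mice above its 4 LF-fed mice, which held for 629 of the 3089 tested genes (20.4%), and the two-sided exact permutation p was 0.0286 for each (n = 4 against 4). The median tested gene was at -0.54 (-0.21 after TMM and -0.18 with DESeq2), and the members were between 2.05 and 2.45 above it. The medians of the 2 genotypes come from differently selected genes, so the distances to them cannot be compared between the genotypes.

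The 3 called members kept their call in 4 of 8 fits in TSP1ΔPf4 mice. Cd74, H2-Eb1 and H2-Aa lost it without LF replicate 2 (adjusted p = 0.0646, 0.0575 and 0.0668), LF replicate 4 (0.0893, 0.0727 and 0.0893), AMLN replicate 2 (0.112, 0.1 and 0.115) or AMLN replicate 3 (0.0944, 0.053 and 0.0981). Without LF replicate 3, H2-Ab1 was called as well (adjusted p = 0.0383). The split of all calls depended on the scaling, with 45 raised and 47 lowered by library totals, 160 and 38 after TMM, 1115 and 388 with DESeq2, and 467 and 730 with DESeq2 at the authors' size factors. The members were higher on AMLN under each of these scalings.

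**Figure D2:**
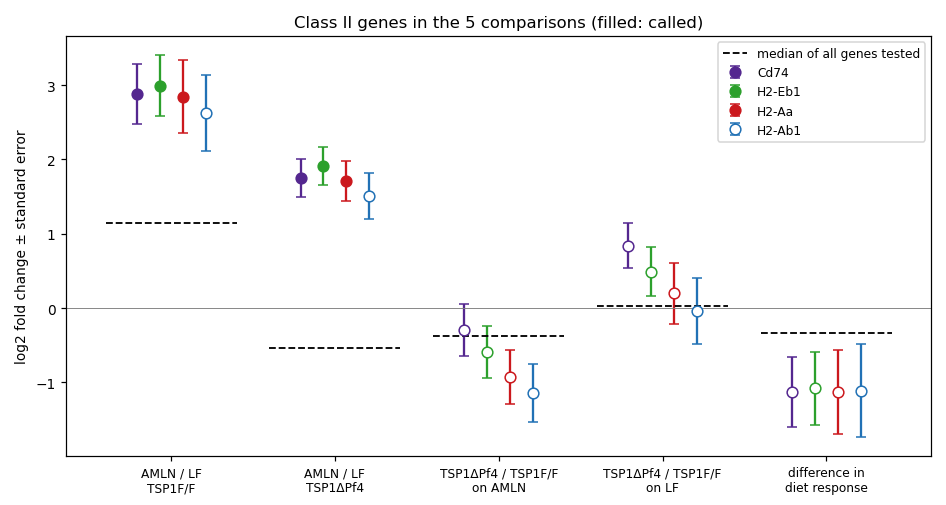
Log2 fold change of counts (vertical axis) of the 4 genes in the 5 comparisons (horizontal axis), 4 mice per group. Points are edgeR estimates with bars of 1 standard error, filled where the gene was called, and dashed lines are the medians of all genes tested. In the diet comparisons all 4 points are above the median, and no genotype point is filled.

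The genotypes were compared over the 752 genes in both tables. The 2 tables may have been scaled separately, and such a difference in scaling and a difference between the genotypes cannot be told apart, so changes are read against the median of all genes tested. On AMLN that median was -0.38, and it was -0.10 after TMM and -0.04 with DESeq2. Of 733 tested genes 66 (9%) were called, 4 higher and 62 lower in TSP1ΔPf4 mice, and the split was 11 and 37 after TMM and 17 and 56 with DESeq2. By edgeR 0 of the 4 members were called and 2 had an unadjusted p under 0.05, as did 185 of the 733 genes, while DESeq2 called 0 with its own size factors and 1, H2-Ab1, with the authors' size factors. In 110 of the 733 genes (15%) the genotypes did not overlap, and this held for 0 of the members.

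The members stood in an order on AMLN from Cd74, the least lowered, to H2-Ab1. Cd74 had a log2 fold change of -0.29 (SE 0.35, adjusted p = 0.657), which became 0.00 after TMM and 0.10 with DESeq2. H2-Eb1 was at -0.59 (SE 0.35, adjusted p = 0.323) and H2-Aa at -0.93 (SE 0.36, adjusted p = 0.133). H2-Ab1 was at -1.14 (SE 0.39, adjusted p = 0.0952), and without the AMLN-fed TSP1F/F replicate 1 it was called (adjusted p = 0.0442). Relative to the median the values were 0.09, -0.22, -0.55 and -0.77. The 3 chain genes were lower in TSP1ΔPf4 mice under each scaling, whereas Cd74 changed its sign. The two-sided exact permutation test (n = 4 against 4) gave p = 0.657 for Cd74, 0.257 for H2-Eb1, 0.114 for H2-Aa and 0.0857 for H2-Ab1. A lower level in bulk liver can come from fewer cells of a type or from less RNA per cell, and these cannot be told apart here.

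**Figure D3:**
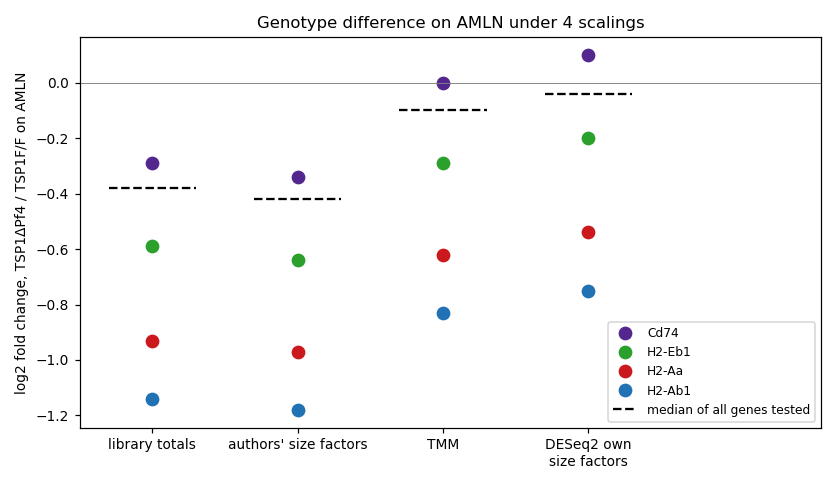
Log2 fold change between TSP1ΔPf4 and TSP1F/F mice on AMLN (vertical axis) of the 4 genes under 4 scalings of the libraries (horizontal axis). Points are fitted values from 4 mice against 4 and dashed lines are the medians of all genes tested. A scaling moves the genes of a library together, so their equal order in each scaling is no separate support for it. Cd74 moves from -0.34 to 0.10.

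On LF the median tested gene was at 0.03. With edgeR 0 of 640 genes were called (0%), 44 had an unadjusted p under 0.05, and DESeq2 called 0 genes too. Of the members 0 were called and 1, Cd74, had an unadjusted p under 0.05. Cd74 was higher in TSP1ΔPf4 mice by a log2 fold change of 0.84 (SE 0.30, adjusted p = 0.624), and 3 of the 4 TSP1ΔPf4 mice were above every TSP1F/F mouse (two-sided exact permutation p = 0.0571). H2-Eb1 was at 0.49 (SE 0.33, adjusted p = 0.676), H2-Aa at 0.20 (SE 0.41, adjusted p = 0.883) and H2-Ab1 at -0.04 (SE 0.45, adjusted p = 0.99). The last 2 changed sign when single mice were left out, H2-Aa to -0.08 without the LF-fed TSP1F/F replicate 1 and H2-Ab1 to 0.31 without the LF-fed TSP1F/F replicate 2. The genotypes did not overlap on LF in 32 of 640 genes (5%) and in 0 of the members.

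The difference between the diet responses was tested with an interaction term over all 16 mice. It called 3 of 734 genes (0.409%), all lower in TSP1ΔPf4 mice, where TMM scaling gave 8 higher and 7 lower and DESeq2 12 and 33. By edgeR 0 of the 4 members were called and 2, Cd74 and H2-Eb1, had an unadjusted p under 0.05, as did 110 of the 734 genes, and DESeq2 called 0 of the members. The log2 difference was -1.13 for Cd74 (SE 0.47, adjusted p = 0.252) and -1.08 for H2-Eb1 (SE 0.49, adjusted p = 0.306). It was -1.13 for H2-Aa (SE 0.57, adjusted p = 0.36) and -1.11 for H2-Ab1 (SE 0.62, adjusted p = 0.435). The median tested gene was at -0.34, and after TMM, where it was at 0.05, the members were at -0.67, -0.68, -0.79 and -0.78. The comparisons share mice, so the members' values in them are not independent of each other.

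Ratios between members within a library do not depend on how libraries are scaled. The ratio of H2-Aa to H2-Ab1, whose products pair, lay between 0.525 and 0.928 in all 16 mice, while H2-Ab1 over Cd74 lay between 0.256 and 1.88. H2-Ab1 over Cd74 on LF was 0.414, 0.966, 1.88 and 0.421 in TSP1F/F mice and 0.312, 0.256, 0.759 and 0.595 in TSP1ΔPf4 mice. On AMLN it was 0.439, 0.851, 0.453 and 1.22 in TSP1F/F mice and 0.399, 0.311, 0.306 and 0.529 in TSP1ΔPf4 mice. The groups overlapped in each comparison, and the AMLN-fed TSP1F/F mice fell into a low and a high pair.

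The ratio of each chain to Cd74 was tested by the two-sided exact permutation test (n = 4 against 4), together with H2-Aa over H2-Ab1 and H2-Eb1 over H2-Aa, which were added after the data had been seen. For the diet the log2 differences of the 3 ratios to Cd74 lay between -0.21 and 0.15, with p from 0.571 to 0.857 (exact). Between the genotypes on AMLN the log2 difference was -0.84 for H2-Ab1 over Cd74 (exact p = 0.114), -0.68 for H2-Aa over Cd74 (exact p = 0.0857) and -0.34 for H2-Eb1 over Cd74 (exact p = 0.2), and on LF these were -0.78 (exact p = 0.314), -0.50 (exact p = 0.514) and -0.33 (exact p = 0.457). H2-Eb1 over H2-Aa on AMLN was 1.3, 1.13, 1.39 and 1.07 in TSP1F/F mice and 1.63, 1.51, 1.54 and 1.48 in TSP1ΔPf4 mice. These groups did not overlap (log2 difference 0.34, exact p = 0.0286, Benjamini-Hochberg adjusted p = 0.457 over the 20 ratio tests).

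**Figure D4:**
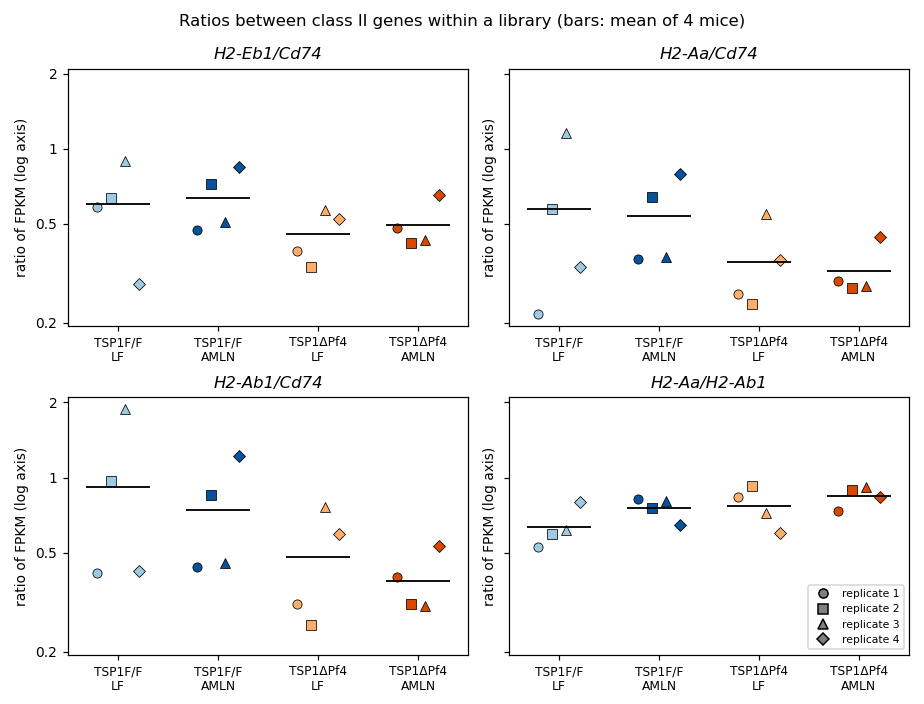
Ratios of FPKM between members in the same library (vertical axis, log scale) for each of the 16 mice, by genotype and diet (horizontal axis). Symbols are single mice by replicate number and bars are means of 4 mice. H2-Aa over H2-Ab1 stays between 0.525 and 0.928, a narrower range than that of any ratio to Cd74.

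Among the other class II genes, H2-DMa and H2-DMb1, which encode the chains of the peptide exchanger H2-DM, were the 2 of 5 loading and editing genes that were listed, both in both tables. H2-DMb1 had 0.0351, 0.866, 1.56 and 1.62 FPKM in LF-fed and 7.21, 8.1, 15 and 23.5 in AMLN-fed TSP1F/F mice. In TSP1ΔPf4 mice it had 1.79, 1.56, 1.73 and 1.21 FPKM on LF and 3.98, 4.01, 2.51 and 7.42 on AMLN. The diets did not overlap in either genotype, for H2-DMb1 and for H2-DMa alike. Yet edgeR called 0 of the 2 for the diet in either genotype, where 2 had an unadjusted p under 0.05 and DESeq2 called 2. Among all tested genes, 1680 of 2096 in TSP1F/F and 2649 of 3089 in TSP1ΔPf4 mice had an unadjusted p under 0.05 for the diet. Counts at such a p, here and in the lists below, are read against these shares. The median log2 fold change of the 2 genes was 2.78 in TSP1F/F and 1.43 in TSP1ΔPf4 mice. On AMLN H2-DMb1 was called lower in TSP1ΔPf4 mice (log2 fold change -1.59, adjusted p = 0.0416), with the highest TSP1ΔPf4 value inside the TSP1F/F range. The call was lost after TMM (adjusted p = 0.0824), with DESeq2 (adjusted p = 0.054), without the AMLN-fed TSP1F/F replicate 3 (0.0953) or 4 (0.139) and without the AMLN-fed TSP1ΔPf4 replicate 1 (0.11), 2 (0.128) or 3 (0.11). Its difference in diet response was -2.20 (adjusted p = 0.195), and H2-DMa on AMLN was at -0.63 (adjusted p = 0.368).

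Of the 8 transcription regulators, 1 was listed in the TSP1F/F table and 3 in the TSP1ΔPf4 table, and edgeR called 0 of them for the diet, with 1 and 3 at an unadjusted p under 0.05 and 1 called by DESeq2 in each genotype. Ciita, the class II transactivator, was in both. It had 0, 0.0843, 0.0405 and 0.0275 FPKM in LF-fed and 0.444, 0.292, 1.04 and 1.01 in AMLN-fed TSP1F/F mice, without overlap. TSP1ΔPf4 mice had 0.0167, 0.0152, 0.129 and 0.0167 FPKM on LF and 0.112, 0.41, 0.304 and 0.244 on AMLN, with LF replicate 3 above AMLN replicate 1. The log2 fold changes for the diet were 4.19 (adjusted p = 0.0749) and 2.61 (adjusted p = 0.0936), at counts of 0 to 21 per mouse on LF, and the genotype difference on AMLN was -1.38 (adjusted p = 0.116). Ciita was the gene that DESeq2 called in both genotypes, and edgeR called it without LF replicate 3 in TSP1ΔPf4 mice (adjusted p = 0.023) and, between the genotypes, without the AMLN-fed TSP1F/F replicate 2 (adjusted p = 0.0491). Rfxank (log2 fold change -0.61) and Nfyb (-0.44), which encode subunits of the RFX and NF-Y complexes that bind class II promoters, were lower on AMLN without overlap in TSP1ΔPf4 mice, near the median of -0.54.

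Of the 11 lysosomal enzymes, 6 were listed in the TSP1F/F table and 5 in the TSP1ΔPf4 table, with median log2 fold changes of 1.41 and 0.51 for the diet. Ctss, the cathepsin that cleaves the invariant chain, was the 1 called by edgeR in each, while DESeq2 called 2 and 3 of the enzymes. Its levels were 3.5, 12.5, 10.4 and 7.02 FPKM on LF and 38.7, 32.9, 54.1 and 93.2 on AMLN in TSP1F/F mice. In TSP1ΔPf4 mice they were 7.35, 5.48, 13.2 and 10.7 FPKM on LF and 24.8, 32, 27.3 and 39.9 on AMLN. The diets did not overlap (log2 fold change 2.71, adjusted p = 0.0379, and 1.76, adjusted p = 0.0318). The call remained in 1 of 8 fits that left out a mouse in TSP1F/F mice (without LF replicate 3, and otherwise at an adjusted p of up to 0.137, without AMLN replicate 3) and in 2 of 8 in TSP1ΔPf4 mice (without LF replicate 3 or AMLN replicate 4, and otherwise at up to 0.115, without AMLN replicate 2). On AMLN Ctss differed between the genotypes by -0.82 (adjusted p = 0.152). Ifi30, which reduces disulfide bonds of antigens, was higher on AMLN without overlap in both genotypes (1.07 and 0.83), as were Ctsd (0.89) and Lgmn (1.75) in TSP1F/F mice. There Ifi30 and Ctsd were below the median of 1.15 and fell to 0.69 and 0.54 with DESeq2, which called neither. DESeq2 at the authors' size factors called both, Ifi30 at 1.07 (adjusted p = 0.00368) and Ctsd at 0.89 (adjusted p = 0.0204), below its median of 1.41.

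The remaining lists around the class II pathway held few called genes. Of 3 ubiquitination and turnover genes, 2 were listed for TSP1F/F and 1 for TSP1ΔPf4, and Cd83 (2.03) was higher on AMLN without overlap in TSP1F/F mice. Of 8 costimulatory ligands 4 and 1 were listed, all with a higher mean on AMLN and all overlapping. Of 12 genes of the T cell side 2 and 1 were listed at too few counts to be tested, and Cd3e, at 0.131 and 0.845 CPM on LF and AMLN in TSP1F/F mice, did not overlap. Of 5 genes for Cd74 ligands and co-receptors 3 and 2 were listed. Cd44 was higher on AMLN without overlap in both genotypes (2.28 and 0.87), and within TSP1ΔPf4 mice Ddt was lower on AMLN than on LF (-1.02). Without LF replicate 3 of the TSP1F/F mice Cd44 was called (adjusted p = 0.0357). In these lists edgeR otherwise called 0 of 8 tested genes in TSP1F/F mice (7 at an unadjusted p under 0.05, 1 called by DESeq2) and 0 of 4 in TSP1ΔPf4 mice (3 at an unadjusted p under 0.05, 3 called by DESeq2).

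Interferon gamma was represented by 2 of 10 signalling genes in each table, with Irf8 higher on AMLN without overlap in both genotypes (1.95 and 1.43) and Irf2 (0.76) in TSP1ΔPf4 mice. By edgeR 0 of the 2 were called in either genotype, 2 had an unadjusted p under 0.05 in each, DESeq2 called 0 in TSP1F/F and 2 in TSP1ΔPf4 mice, and without LF replicate 3 of the TSP1ΔPf4 mice edgeR called Irf8 (adjusted p = 0.0478). Of 17 inducible genes 8 were listed for TSP1F/F and 7 for TSP1ΔPf4, with medians of 1.63 and 1.11. Ubd, a ubiquitin-like modifier, was the 1 called by edgeR in each, while DESeq2 called 3 and 5 of the inducible genes. It had 0.28, 3.51, 1.48 and 0.967 FPKM on LF and 11.4, 14.3, 58.6 and 59.7 on AMLN in TSP1F/F mice, and 1.26, 0.571, 1.44 and 1.6 on LF and 3.94, 9.05, 8.84 and 9.57 on AMLN in TSP1ΔPf4 mice. Neither the diets nor the AMLN-fed genotypes overlapped, and replicates 3 and 4 of the AMLN-fed TSP1F/F group were highest, as for H2-Eb1, H2-Aa and H2-Ab1. The log2 fold changes were 4.53 (adjusted p = 0.0472) and 2.69 (adjusted p = 0.0316) for the diet and -2.20 (adjusted p = 0.0241) between the genotypes on AMLN. Leaving out 1 mouse, edgeR kept the call in 0 of 8 fits in TSP1F/F mice, where the adjusted p was highest without AMLN replicate 3 (0.154), and in 4 of 8 in TSP1ΔPf4 mice, which lost it without LF replicate 2 (0.0575) or 4 (0.0893) or AMLN replicate 2 (0.112) or 3 (0.0981). Between the genotypes it was kept in 3 of 8 and lost without the AMLN-fed TSP1F/F replicate 3 (0.0915) or 4 (0.0732) or the AMLN-fed TSP1ΔPf4 replicate 1 (0.0718), 2 (0.0674) or 3 (0.0538). Its difference in diet response was -1.84 (adjusted p = 0.329). In TSP1F/F mice Cxcl9 (1.78), Gbp2 (2.29), Gbp3 (0.82, below the median of 1.15, and 0.62 with TMM and 0.42 with DESeq2) and Gbp5 (2.85) were higher and Iigp1 (-0.83) was lower on AMLN without overlap, and in TSP1ΔPf4 mice Cxcl9 (2.03) and Cxcl10 (0.98) were higher.

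Class I genes gave a background from the other presentation pathway. Of 14 heavy chain genes and B2m, 2 were listed for TSP1F/F, H2-Q1 (1.54) and H2-Q4 (0.66), both higher on AMLN without overlap, although H2-Q4 lay below the median tested gene of 1.15 and moved to 0.48 with TMM and 0.29 with DESeq2. For TSP1ΔPf4 5 were listed, and H2-Q7 (-0.69), H2-Q10 (-0.46) and H2-T23 (-0.65) were lower without overlap, all near the median of -0.54. H2-Q1 was lower in TSP1ΔPf4 than in TSP1F/F mice on AMLN without overlap (-0.83). Of 14 genes of class I peptide supply 3 were listed for each genotype, with Tap1 (0.69, and 0.50 with TMM and 0.30 with DESeq2) higher in TSP1F/F mice and Psme1 (-0.65) and Pdia3 (-0.56) lower in TSP1ΔPf4 mice without overlap. Tap1 too lay below its median and the other 2 lay near theirs. By edgeR 0 of the 5 class I genes tested in TSP1F/F mice were called for the diet (3 at an unadjusted p under 0.05, 0 called by DESeq2), and 0 of 8 in TSP1ΔPf4 mice (7 at an unadjusted p under 0.05, 1 called by DESeq2). Without LF replicate 1 of the TSP1F/F mice H2-Q1 was called (adjusted p = 0.0434).

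The genes whose levels followed the members most closely among mice of the same diet were found by the mean Pearson r with the 4 members over 8 mice, after the mean of each diet group had been subtracted. In TSP1F/F mice, among 1983 genes with a mean of at least 1 CPM, these were Sema3c and Crip1 (0.84), Ubd, Pdgfc and Btg2 (0.82) and Atf3 (0.81). In TSP1ΔPf4 mice, among 2974 genes, they were Cxcl9 (0.78), Abcg3 (0.76), H2-DMa and Nxpe2 (0.75), and Ces1e and Csf2ra (0.74). The genes ranked differ between the tables, which share 752, so the 2 sets of names cannot be compared, and the values describe the mice without a test. The members followed each other unequally. Cd74 with H2-Ab1 had an r of 0.31 in TSP1F/F and 0.10 in TSP1ΔPf4 mice, and H2-Aa with H2-Ab1 had 0.97 and 0.91. A high mean r can therefore rest more on some members than on others.

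Many marker genes of the cells that carry class II molecules were higher on AMLN too, and their part in the members' values was not tested. Of 16 monocyte and macrophage markers 12 were listed for TSP1F/F and summed to 62.3, 120, 328 and 57.5 FPKM on LF and 293, 373, 508 and 1487 on AMLN. For TSP1ΔPf4 11 were listed and summed to 33.8, 36.2, 80.3 and 43.7 FPKM on LF and 107, 91.5, 94.5 and 159 on AMLN. Lyz2 was the most abundant in each table (here and below by mean FPKM over its 8 mice), 0 of the listed markers were at 0 in any AMLN-fed mouse, and the LF-fed TSP1F/F replicate 3 stood above the lowest AMLN-fed TSP1F/F mouse. For the diet edgeR called 4 markers raised in TSP1F/F mice (Csf1r, Fcgr1, Trem2 and Gpnmb) and 3 in TSP1ΔPf4 mice (Csf1r, Gpnmb and Mmp12), with medians of 2.62 and 1.74. All 12 and 11 tested markers had an unadjusted p under 0.05, and DESeq2 called 8 and 11. Leaving out 1 mouse, the edgeR calls in TSP1F/F mice were kept in 3, 1, 7 and 8 of 8 fits, Trem2 losing it without LF replicate 4 (adjusted p = 0.0694). Those in TSP1ΔPf4 mice were kept in 4, 7 and 7, Gpnmb (0.066) and Mmp12 (0.0594) losing it without LF replicate 4.

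On AMLN 6 of 11 tested macrophage markers were called lower in TSP1ΔPf4 than in TSP1F/F mice (Lyz2, Fcgr1, Trem2, Gpnmb, Mmp12 and Clec7a), with a median of -1.60. All 6 were also called after TMM and with DESeq2. Lyz2 lost its call without the AMLN-fed TSP1ΔPf4 replicate 2 (adjusted p = 0.0602), and Fcgr1 lost it without replicate 1 (0.0628), 2 (0.0721) or 3 (0.0569) of that group. Csf1r, the receptor shared by macrophages, was not called, and its AMLN values of 6.7, 4.54, 9.45 and 5.12 FPKM in TSP1F/F mice overlapped the 5.07, 9.33, 7.79 and 6.99 of TSP1ΔPf4 mice. The 11 markers in both tables summed to 255, 343, 373 and 1413 FPKM on AMLN in TSP1F/F and to 107, 91.5, 94.5 and 159 in TSP1ΔPf4 mice, without overlap. The means were 596 ± 547 and 113 ± 31.5 FPKM (SD, n = 4), the first carried largely by replicate 4, while the sums of the 4 class II genes overlapped.

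Of 12 Kupffer cell markers 9 were listed for TSP1F/F and summed to 46.1, 106, 186 and 71.5 FPKM on LF and 313, 288, 308 and 634 on AMLN. For TSP1ΔPf4 6 were listed, with sums of 50.3, 67.3, 94.7 and 76.9 FPKM on LF and 177, 160, 145 and 195 on AMLN. Cd5l was the most abundant, and the diets did not overlap in either genotype. By edgeR C1qc was called raised in TSP1F/F mice and C1qc and Vsig4 in TSP1ΔPf4 mice. Cd163 was lower on AMLN without overlap in both genotypes and was at 0 in replicates 3 and 4 of the AMLN-fed TSP1F/F mice. Marco, in the TSP1F/F table only, was lower on AMLN without overlap as well (0.542, 0.529, 4.67 and 1.19 FPKM on LF and 0.44, 0.187, 0.366 and 0 on AMLN). Neither Cd163 nor Marco was called by edgeR. DESeq2 called 5 of the 9 Kupffer cell markers in TSP1F/F mice and all 6 in TSP1ΔPf4 mice, Cd163 among the latter. The edgeR calls were kept in 1 of 8 fits for C1qc in TSP1F/F mice (without LF replicate 3). In TSP1ΔPf4 mice they were kept in 3 of 8 for C1qc and 2 of 8 for Vsig4. Clec4f, a marker of resident Kupffer cells, was in the TSP1F/F table only and overlapped between the diets (1.16, adjusted p = 0.384), and Timd4, another, was in neither table and was not analysed here. On AMLN Cd5l was called lower in TSP1ΔPf4 mice (-1.31, adjusted p = 0.0333), a call lost after TMM (0.0824), with DESeq2 (0.0613) and in 6 of 8 fits that left out 1 mouse. It was the 1 of 6 tested Kupffer cell markers called there, and their median was -0.58, against -0.38 for all genes tested.

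Of 15 dendritic cell markers 6 were listed for TSP1F/F and summed to 1.09, 1.76, 0.611 and 1.08 FPKM on LF and 3.39, 2.81, 9.36 and 6.51 on AMLN. For TSP1ΔPf4 2 were listed, with sums of 0.222, 0.155, 0.0262 and 0.192 FPKM on LF and 0.462, 0.654, 0.703 and 1.12 on AMLN. Cd24a was the most abundant in TSP1F/F and Itgax in TSP1ΔPf4 mice, and Mgl2 was at 0 in all 4 LF-fed TSP1F/F mice. Itgax was called raised in TSP1F/F mice, a call lost in all 8 fits that left out 1 mouse (adjusted p from 0.0513 to 0.154), and in TSP1ΔPf4 mice edgeR called 0 of 1 tested (1 at an unadjusted p under 0.05, 1 called by DESeq2). Of 14 B cell markers Cd79b and Cd22 were listed for TSP1F/F and 0 for TSP1ΔPf4. They summed to 0.917, 0.834, 1.73 and 0.865 FPKM on LF and 1.6, 1.21, 3.38 and 4.91 on AMLN, with Cd79b the more abundant, and edgeR called 0 of the 2 (0 at an unadjusted p under 0.05, 0 called by DESeq2).

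**Figure D5:**
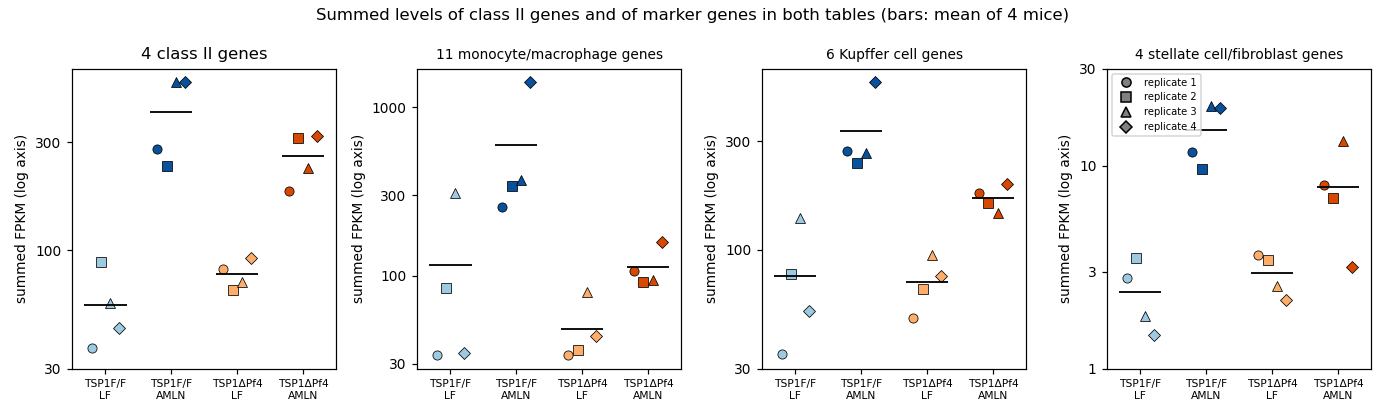
Summed FPKM (vertical axes, log scale) of the 4 class II genes and of the monocyte and macrophage, Kupffer cell, and stellate cell and fibroblast markers in both tables, in each of the 16 mice by genotype and diet (horizontal axes). Symbols are single mice by replicate number and bars are means of 4 mice. On AMLN the genotypes do not overlap for the macrophage and Kupffer cell sums and overlap for the class II genes.

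Lists of other cell types were examined as well. Of 11 stellate cell and fibroblast markers 6 and 4 were listed for TSP1F/F and TSP1ΔPf4, with Lum and Col3a1 the most abundant. The 6 summed to 5.94, 11.4, 8.93 and 5.47 FPKM on LF and 20.1, 19.1, 32.8 and 52 on AMLN in TSP1F/F mice, and Col1a2 and Col3a1 were called raised, in 1 and 4 of the 8 fits that left out 1 mouse. The 4 summed to 3.64, 3.41, 2.56 and 2.17 FPKM on LF and 8.03, 6.92, 13.2 and 3.16 on AMLN in TSP1ΔPf4 mice, with 0 of 4 called for the diet by edgeR (3 at an unadjusted p under 0.05, 3 called by DESeq2). On AMLN Col3a1 was the 1 of 4 tested markers called lower than in TSP1F/F mice (-1.72, adjusted p = 0.0182). The median of the 4 was -0.11, against -0.38 for all genes tested. The Col3a1 call was lost without the AMLN-fed TSP1F/F replicate 3 (0.0512) or TSP1ΔPf4 replicate 2 (0.0665). Of the T cell and NK cell markers 4 were listed for TSP1F/F, and Cd8a was called raised from LF counts of at most 1 per mouse, a call kept in 0 of 8 fits that left out 1 mouse. The sums were 0.064, 0.0751, 0.15 and 0.0759 FPKM on LF and 0.997, 1.01, 1.84 and 1.12 on AMLN in TSP1F/F mice, with Cd3g the most abundant. Of 9 plasma cell markers Sdc1 was listed for TSP1F/F, where it fell by 0.65 on the log2 scale (66.3, 59.4, 62.3 and 83.5 FPKM on LF and 49.3, 42.4, 36.1 and 45.3 on AMLN), and edgeR did not call it, and Mzb1 for TSP1ΔPf4, where it was at 0 in 3 of the 4 LF-fed mice and too low to be tested.

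For neutrophils 3 of 10 markers were listed for TSP1F/F, summing to 0.457, 1.98, 2.03 and 1.15 FPKM on LF and 3.43, 3.42, 4.87 and 14.6 on AMLN with S100a8 the most abundant, and 0 for TSP1ΔPf4. Of 10 endothelial markers 3 were listed for each genotype, with Stab2 the most abundant. They summed to 4.51, 4.47, 1.6 and 4.35 FPKM on LF and 7.66, 6.87, 8.42 and 9.85 on AMLN in TSP1F/F mice, and to 6.26, 5.21, 5.64 and 5.49 on LF and 6.51, 7.8, 9.78 and 7.7 on AMLN in TSP1ΔPf4 mice. Of 8 cholangiocyte markers 3 were listed for TSP1F/F, led by Spp1 (28.9, 35.8, 18.4 and 22.8 FPKM in sum on LF and 39.2, 30.7, 142 and 75.2 on AMLN), and 2 for TSP1ΔPf4, led by Epcam (1.01, 1.04, 0.798 and 1.11 on LF and 1.37, 1.84, 3.12 and 1.51 on AMLN).

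Hepatocyte markers numbered 4 and 6 of 12, led by Ttr and Apoa1, and had median log2 fold changes of -0.83 and -0.58 for the diet. They summed to 5310, 6652, 5506 and 7279 FPKM on LF and 3639, 4739, 2312 and 3545 on AMLN in TSP1F/F mice, and to 17415, 18866, 25937 and 21474 on LF and 12209, 8757, 10458 and 13915 on AMLN in TSP1ΔPf4 mice. Of 10 platelet and megakaryocyte markers Pf4 and Thbs1 were listed for TSP1F/F, with sums of 0.0516, 1.49, 0.883 and 0.218 FPKM on LF and 3.38, 6.88, 5.43 and 7.56 on AMLN, and 0 for TSP1ΔPf4, so the targeted gene gives no check of the genotype labels. Of 7 red blood cell genes 2 were listed for TSP1F/F, led by Hba-a1 (13.5, 31.5, 138 and 70.6 FPKM in sum on LF and 106, 135, 521 and 176 on AMLN), and 1 for TSP1ΔPf4, Hba-a2 (26, 4.85, 4.29 and 1.59 on LF and 5.25, 4.93, 1.63 and 2.45 on AMLN). From the neutrophil to the red blood cell list edgeR called 0 of 16 tested genes in TSP1F/F mice (16 at an unadjusted p under 0.05, 7 called by DESeq2). In TSP1ΔPf4 mice it called 0 of 12 (11 at an unadjusted p under 0.05, 5 called by DESeq2). Among all tested genes, 1680 of 2096 in TSP1F/F and 2649 of 3089 in TSP1ΔPf4 mice had an unadjusted p under 0.05 by edgeR.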

How the data were processed

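RNA of 16 mouse livers was sequenced in paired reads of 150 bases. The paper names STAR and the labels name HISAT2 for the alignment to mm10, so the aligner is uncertain. The authors deposited, for each mouse, counts per gene, a signal (counts divided by a size factor per library) and FPKM (counts divided by gene length and by a library total). They also deposited the log2 fold change and p-value columns of their own DESeq2 comparison of the diets, which were used only to learn the selection of genes and the number of genes adjusted over, and a deposited gene length in bases, a value of another kind.

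Library totals were computed from counts, gene length and FPKM. Genes kept by filterByExpr were fitted with edgeR 4.0.16 (glmQLFit and glmQLFTest, limma 3.58.1, R 4.3.3) on these totals, since TMM needs unselected genes. P-values were adjusted by Benjamini-Hochberg over the 16784 (TSP1F/F) and 13927 (TSP1ΔPf4) genes that the authors had adjusted over for the diet, with genes outside the tables taken as not called, and over the genes tested for the genotypes and the interaction. Single values were compared by two-sided exact permutation tests on log2(CPM + 1), and ratios on the log2 scale.

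The 4 members, the 13 pathway lists and the 13 cell marker lists (26 in all), and the rule for naming genes were chosen with earlier results of these data known. That rule names the members, each pathway gene that is called or whose groups do not overlap, and the 6 genes most like the members in each table. Marker genes outside it, and H2-DMa, Ciita and Ctss between the genotypes, were named after their values were seen. Cd3d, Cd3e, Cd3g and Cd4 are in both T cell lists, Spp1 is in the macrophage and cholangiocyte lists, and Cxcr2 is in the neutrophil list and that of the Cd74 co-receptors.

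The alternatives were TMM, the authors' size factors, DESeq2 1.42.0, no low count filter, a replicate block, adjustment over the listed genes, all 16 mice in 1 fit for the genotypes, a pseudocount of 0.1 for the single values and each mouse left out in turn. DESeq2 with the authors' size factors was added after seeing the data. The fit was tested on simulated data. Protein sequences were not analysed here, and neither were genes outside the tables. The T cell and NK cell markers in TSP1ΔPf4 mice are not reported here.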

Additional observations from a re-analysis of the deposited data

Results flagged for a closer look

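Among the 36 groups of 4 mice examined, 2 had a mouse far from the others, where chance flags about 1 in 20 groups. The ratio of H2-Aa to Cd74 in AMLN-fed TSP1ΔPf4 mice was 0.294, 0.277, 0.281 and 0.441, so the gap of replicate 4 to its nearest neighbour was 0.896 of the range of the group. The ratio of H2-Eb1 to H2-Aa in LF-fed TSP1ΔPf4 mice was 1.48, 1.41, 1.03 and 1.47, so the gap of replicate 3 was 0.833 of the range. Both exceed the 0.05 limit of Dixon's test for 4 values.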

How the results depend on the processing

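The members' higher levels on AMLN kept their direction in both genotypes under every alternative run. For the diet in TSP1F/F mice, 52 genes were called, and the count became 847 with DESeq2, 644 with DESeq2 at the authors' size factors, 83 without a low count filter, 10 with a replicate block and 1124 adjusted over the listed genes. Leaving out 1 mouse gave 2 to 61 genes and 0 to 2 of the 4 members, against 3 members called. In TSP1ΔPf4 mice 92 genes became 198 with TMM, 1503 with DESeq2, 1197 with DESeq2 at the authors' size factors, 4 with a replicate block and 2187 adjusted over the listed genes, and leaving out 1 mouse gave 1 to 182 genes and 0 to 4 members. Adjusting over fewer genes raises the counts by construction. The cause of the other changes was not tested.

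Between the genotypes on AMLN, 66 genes became 111 with DESeq2 at the authors' size factors and 116 with a replicate block, and the 0 members called became 1 and 2. Leaving out 1 mouse gave 22 to 84 genes and 0 to 1 members. For the difference in diet response 3 genes became 15 with TMM, 8 with the authors' size factors, 45 with DESeq2, 59 with DESeq2 at the authors' size factors and 0 with a replicate block, and leaving out 1 mouse gave 0 to 24. The cause was not tested.

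Signs changed between the genotypes for Cd74 on AMLN (from -0.29 to 0.00 with TMM, 0.10 with DESeq2 and 0.06 without the AMLN-fed TSP1F/F replicate 3, in a range of -0.50 to 0.06 over single mice left out). On LF the sign of H2-Ab1 changed from -0.04 to 0.00 with TMM and DESeq2, 0.12 with a replicate block and 0.05 to 0.31 with single mice left out (0.31, 0.15, 0.05 and 0.15), in a range from -0.29, and that of H2-Aa from 0.20 to -0.08 without the LF-fed TSP1F/F replicate 1, in a range of -0.08 to 0.50. The cause was not tested.

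Replicate numbers were tried as a block. Correlations of mice with the same number ran from -0.37 to 0.32 between the diets in TSP1F/F mice, from -0.51 to 0.32 in TSP1ΔPf4 mice, from 0.09 to 0.46 between the genotypes on AMLN and from -0.06 to 0.50 on LF, and mice were most alike at their own number for 1 and 0 of 4 numbers between the diets in TSP1F/F and TSP1ΔPf4 mice and for 3 of 4 between the genotypes on each diet. Not every correlation exceeded 0.1 in any of the comparisons, and the labels name no shared litter or day, so the main fits have no block. With the block, 0 of the 4 members were called for the diet in either genotype by edgeR (adjusted p from 0.0878 to 0.122 in TSP1F/F and from 0.0625 to 0.103 in TSP1ΔPf4 mice), and H2-Aa (adjusted p = 0.035) and H2-Ab1 (adjusted p = 0.0131) were called between the genotypes on AMLN. The cause was not tested.

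The exact permutation tests kept their results with a pseudocount of 0.1. Levels computed from library totals gave the same order of the members. This is no check of the order, since the totals were themselves computed from FPKM. The tables hold selected genes, which limits the shared dispersion and the scalings that need all genes. With 4 mice a group the exact test cannot go below 0.0286. Counts of 0 to 21 limit Ciita on LF. Of the other results for single genes, not leaving out a mouse, 173 and 151 were the same for the diet in TSP1F/F and TSP1ΔPf4 mice, 39 and 43 became called and 12 and 9 lost their call, and between the genotypes on AMLN 113 were the same, 5 became called and 6 lost their call.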
